A study of Mus musculus with 15 samples.

Results

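Mammary glands of 22-week-old BALB-neuT mice were compared with those of 19-week-old mice of the same line, the last 2 ages of a series that follows mammary carcinogenesis over 4 ages. The arrays were chosen by the age in their source label alone, which gave 4 arrays at week 22 and 4 at week 19, 8 of the 15 arrays in all. Of the other arrays, 5 were from week 10 and 2 from week 15. Each array held total RNA of the whole-mount gland of 1 animal, per the series design. Every animal carried the BALB-neuT transgene, the activated rat HER-2/neu oncogene driven in the mammary epithelium of BALB/c mice by the MMTV promoter, and no array of a wild-type gland was analysed here. Age and tumour stage therefore cannot be told apart in any difference below. The labels give neither the stage of each gland nor the share of tumour in it, and they do not say whether lymph nodes were removed.

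BALB-neuT females pass through atypical hyperplasia and carcinoma in situ to invasive carcinoma in all mammary glands, so that the late glands hold tumour epithelium, fat, stroma and infiltrating leukocytes side by side. A difference in such a mixed tissue can come from fewer cells of a type or from less RNA per cell, which cannot be told apart in these data. Luminal epithelial cells make the milk proteins under the control of prolactin and the factor STAT5. Stromal cells of lymphoid tissue and lymphatic vessels make the chemokines CCL19 and CCL21, which attract T cells and dendritic cells through the receptor CCR7.

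The AB1700 is a single-colour array read by chemiluminescence, and all levels below are log2 signals after quantile normalization over the 15 arrays, on which 1 unit is a 2-fold change. Levels of different probes cannot be compared, since probes bind with different strength. The 8 late arrays had raw median signals of 835.4 to 1626, and 49.9% to 53.9% of their probes were above background, which required a signal-to-noise ratio that reached 3 and no failure flag. Of 33012 gene probes, 20867 were kept for testing, and 207 genes with a kept probe could be named. The other probes carry identifiers without a gene symbol in the sources used here. The tissue check was limited by these names: the milk protein genes Csn1s2a and Csn2 were above background on all 8 late arrays, whereas Krt18, Erbb2, Adipoq, Mki67 and Ptprc were not analysed here.

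The late arrays did not separate by age alone. Runs of serial numbers in the sample titles place them in 4 array series, and the file headers give 2 scan days. At week 22, replicate 1 was from series 2, replicate 2 from series 3, and replicates 3 and 4 from series 4. At week 19, replicate 1 was from series 1, replicates 2 and 4 from series 3, and replicate 3 from series 4. Replicate 1 of each age was scanned on day 1 and the others on day 2. Over the kept probes, arrays correlated with a mean r of 0.954 within week 22 (range 0.938 to 0.979), 0.96 within week 19 (0.951 to 0.968) and 0.952 between the ages (0.93 to 0.971). Genes are not independent replicates, so these values describe the arrays only. The highest value, 0.979, joined the 2 week 22 arrays of series 4, and week 19 replicate 3, also of series 4, was most like week 22 replicate 4 (r = 0.971). The first principal component of the 8 arrays held 31.1% of the variance and set these 3 arrays apart from the other 5, while the second (21.6%) put all week 22 arrays above all week 19 arrays. For several genes, differences are therefore also given within series 4 or without its week 22 arrays. No setting left out these 3 arrays alone.

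**Figure D1:**
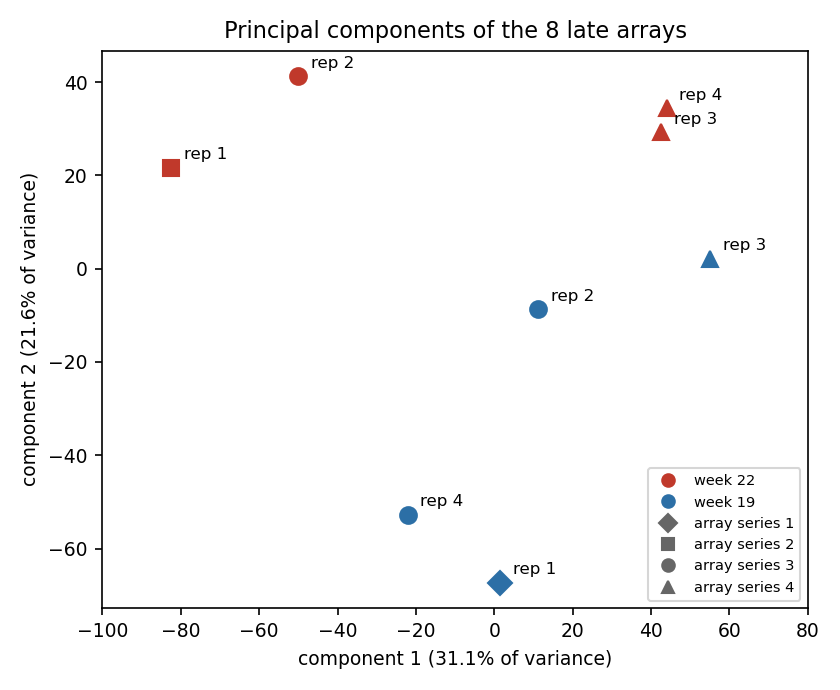
Each point is 1 late array, placed by its first 2 principal components over the 20867 kept probes, with week 22 in red, week 19 in blue and the array series as the marker. The 3 arrays of series 4 lie together at the right, between 42.59 and 55.07 on component 1, and the ages separate on component 2.

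Fitted differences between the 2 late ages were small for most tested probes and none passed the test. With limma and Benjamini-Hochberg adjustment, 0 of 20867 probes had an adjusted p under 0.05 (0% of those tested), and the smallest adjusted p was 0.0537, shared by 4 probes. At an unadjusted p under 0.05 there were 1527 probes, 7.32% of those tested, of which 797 (3.82%) were higher and 730 (3.5%) lower at week 22. With each array centred on its median in place of quantile normalization, that split became 1872 higher and 606 lower, since this scaling moved the median difference of all probes to 0.185. In the quantile normalized data the median difference was 0.0372 and the median size 0.239, and 95% of probes differed by less than 1.039 on the log2 scale. A probe had a median SD of 0.395 among the week 22 arrays and of 0.339 among the week 19 arrays, and 58.4% of probes varied more at week 22. The median standard error of a difference was 0.327, so the typical 95% interval reached 0.704 to either side.

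Those intervals say how far the 2 ages could differ. For 10581 probes (50.7%) the whole 95% interval lay within 2-fold, so a larger difference lies outside the interval for these. A fitted difference of at least 2-fold was seen for 1163 probes. Of these, 379 (1.82% of all tested) were higher and 784 (3.76%) lower at week 22. Beyond 4-fold the split was 4 higher and 69 lower. Among the 207 named genes, 116 (56%) had an interval within 2-fold and 45 within 1.5-fold. The named genes had a median difference of 0.0168, and 11 of them reached an unadjusted p under 0.05, 6 higher and 5 lower. At least 2-fold differences were fitted for 8 named genes that were higher and 5 that were lower. The values of the 2 ages did not overlap for 6 named genes that were higher, against a background of 3.78% of all tested probes, and for 6 that were lower, against 2.66%.

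**Figure D2:**
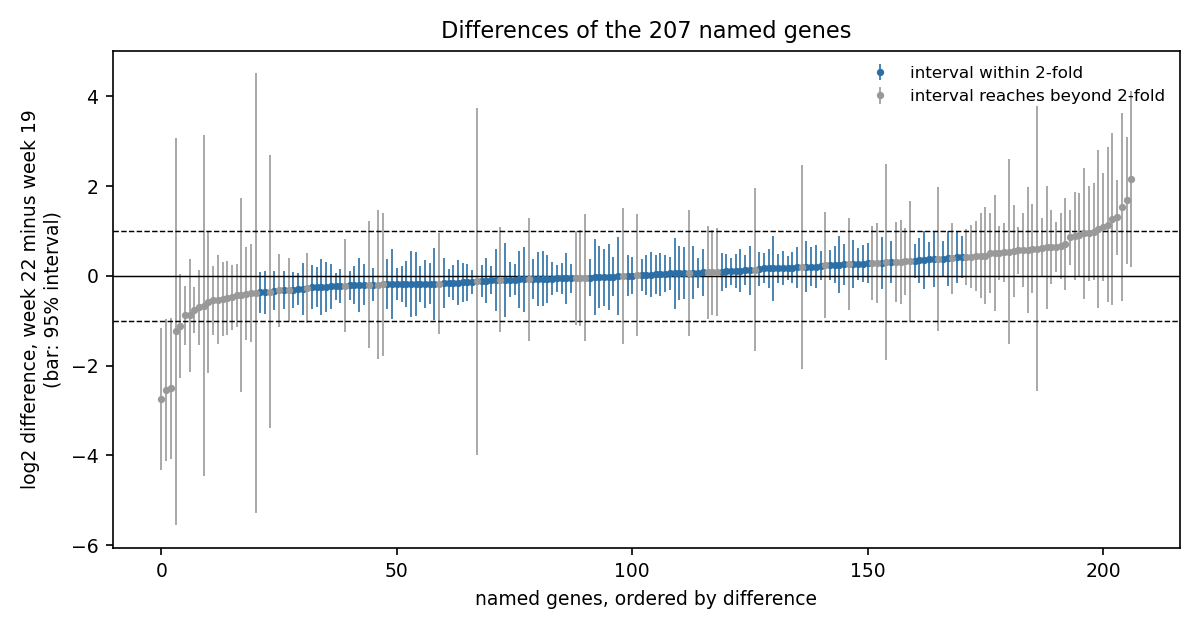
Each of the 207 named genes is drawn as its log2 difference, week 22 minus week 19, with its 95% limma interval, ordered by size, and dashed lines mark 2-fold. Intervals within 2-fold (blue) were found for 116 genes, and the 3 genes at the far left are the chemokines Ccl19, Ccl21b and Ccl21a.

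The 3 named genes with the largest differences downward were the CCR7 ligand genes. Their promoter windows are shown because these are the genes that led the lower end of the comparison. The sequences are from RefSeq, build GRCm38.p6, and run from 250 bases before to 50 bases after the start of the gene. Ccl19 lies at chr4:42756316-42756615 on the minus strand and Ccl21a at chr4:42773942-42774241 on the minus strand. Capitals mark a form of the NF-kappaB motif, GGGA and CC with any 4 bases between them, searched on both strands.
Ccl19: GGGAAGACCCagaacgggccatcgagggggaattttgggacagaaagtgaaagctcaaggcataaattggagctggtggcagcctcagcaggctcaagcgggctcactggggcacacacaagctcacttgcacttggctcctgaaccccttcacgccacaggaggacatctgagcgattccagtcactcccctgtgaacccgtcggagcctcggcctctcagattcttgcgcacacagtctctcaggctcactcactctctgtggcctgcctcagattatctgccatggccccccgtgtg
Ccl21a: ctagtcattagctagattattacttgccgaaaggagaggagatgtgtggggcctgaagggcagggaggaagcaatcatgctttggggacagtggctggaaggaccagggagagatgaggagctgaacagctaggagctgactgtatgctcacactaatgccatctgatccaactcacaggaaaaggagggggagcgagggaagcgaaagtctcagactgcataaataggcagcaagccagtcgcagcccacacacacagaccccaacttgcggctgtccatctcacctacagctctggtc
The Ccl19 window held 1 match, from -250 to -241 relative to the start, and the Ccl21a window held none. The same letters occur in 20.7% of 32851 promoter windows of this length, so a match is only a description of the sequence.

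Ccl19 stood at 12.71, 12.45, 14.40 and 14.67 on the 4 week 22 arrays, against 16.43, 16.56, 15.63 and 16.57 on the 4 week 19 arrays. All week 22 values lay below all week 19 values, and within each age the arrays of series 4 lay nearest to the other age. The means were 13.56 ± 1.14 at week 22 and 16.30 ± 0.45 at week 19 (SD, n = 4 each). The difference was -2.74 ± 0.73 (SE; 95% interval -4.32 to -1.17), or 6.70-fold lower at week 22, with a limma adjusted p of 0.392. A two-sided exact permutation test gave p = 0.0286, the smallest that the 70 splits of 8 arrays allow and the value that every gene without overlap receives.

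Ccl21a, which encodes a CCL21 of lymphoid organs, had 14.25, 14.10, 16.89 and 17.06 at week 22, against 18.30, 18.14, 17.48 and 18.38 at week 19. Its difference was -2.50 ± 0.73 (SE, n = 4 each; 5.67-fold lower; limma adjusted p = 0.454). Ccl21b, a near-identical copy, had 14.72, 14.52, 17.27 and 17.65 at week 22, against 18.88, 18.60, 17.99 and 18.88 at week 19. Its difference was -2.55 ± 0.73 (SE, n = 4 each; limma adjusted p = 0.434), and a further Ccl21b probe gave -2.46. For both genes the week 22 values split into a low and a higher pair, and neither pair overlapped with week 19. Since the copies differ little in sequence, their probes may read the same transcripts and are no independent support for each other.

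The low pair at week 22 was replicates 1 and 2, and the higher pair was the 2 arrays of series 4. Leaving out the series 4 arrays of week 22 was chosen after the values were seen and removes the week 22 arrays nearest to week 19, so a larger difference follows from the choice. The differences were then -3.72 for Ccl19, -3.90 for Ccl21a and -3.97 for Ccl21b, with limma adjusted p values of 0.0341 for Ccl21a and 0.0297 for Ccl21b, among 72 probes under the threshold in that setting, and no call was read from them. Leaving out the late arrays of series 1 and 2 instead gave -2.42 for Ccl19, -1.99 for Ccl21a and -2.01 for Ccl21b, with 0 probes passing. Within series 4 (2 arrays against 1) the differences were -1.10 for Ccl19, -0.51 for Ccl21a and -0.53 for Ccl21b. Within series 3 (1 array against 2) they were -4.12 for Ccl19, -4.17 for Ccl21a and -4.23 for Ccl21b. With array series as a block Ccl19 differed by -2.64, and within scan day 1 (1 array against 1) and scan day 2 it differed by -3.72 and -2.42. The late arrays of series 1 and 2 are those of scan day 1, so the scan day 2 value repeats the one without them. The sign was negative for all 3 genes under every alternative run. For the settings that leave out or select arrays this was fixed in advance, since the values of the ages did not overlap. Settings that changed only the filter or the variance, or took scan day as a block, left the fitted differences as they were. The part of the array series in the spread at week 22 was not tested. In the order of ages 10, 15, 19 and 22 weeks, Ccl19 had means of 11.30, 13.38, 16.30 and 13.56, so week 19 was the highest of the 4 ages, and the 2 arrays of week 15 spanned 11.72 to 15.04.

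**Figure D3:**
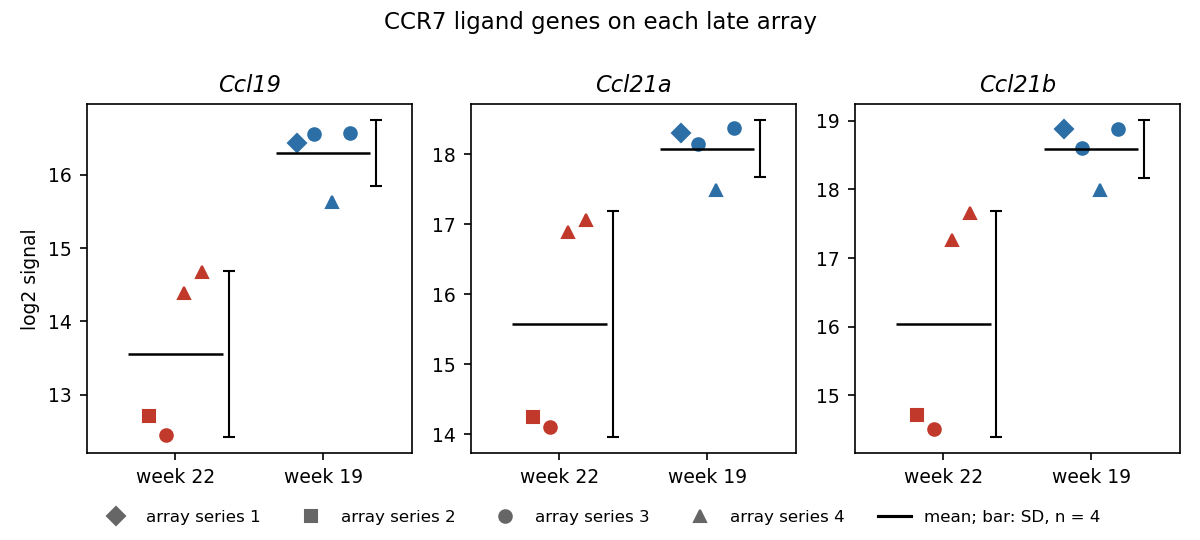
The log2 signals of Ccl19, Ccl21a and Ccl21b are plotted for each of the 4 week 22 and 4 week 19 arrays, with the mean, the SD beside it and the array series as the marker. The week 22 values fall into a low pair and a higher pair from series 4, and both lie below every week 19 value.

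Other genes of immune cells differed less than the chemokines, with intervals given beside them. Bcl2a1b, an anti-apoptotic gene of leukocytes, had 15.88, 15.49, 15.75 and 15.72 at week 22, against 15.88, 15.85, 16.15 and 15.93 at week 19. Its difference was -0.24 (95% interval -0.80 to 0.31), and with each array centred on its median it was 0.05, with the sign turned. Lst1, a leukocyte-specific transcript, and Tnfsf13, which encodes the B cell survival factor APRIL, both differed by 0.00, with intervals of -0.46 to 0.47 and -0.40 to 0.41, so that 2-fold lies outside the interval for all 3 of these genes. The fixed lists for T cells, macrophages and dendritic cells, neutrophils and mast cells had no member that could be named. On the MHC class I list, H2-Q7 and H2-Q8, which encode Qa class I molecules, were both on the lower side at week 22, with differences of -0.25 and -0.54. H2-Q8 had 13.61, 13.07, 13.45 and 13.20 at week 22, against 14.34, 13.63, 14.42 and 13.11 at week 19. The ages overlapped through week 19 replicate 4, and the limma adjusted p was 0.799. Ifi202b, an interferon-inducible gene, differed by 0.25 (-0.38 to 0.88).

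A list of innate and lymphocyte genes, written after gene names were known, had 8 kept members, of which 6 were on the lower and 2 on the higher side, with a median of -0.18, while 45.5% of all tested probes were below 0. None of the 8 passed the test. The lowest p values on it were those of Grap and Elf4, and at its upper end Tlr7, a receptor gene for viral RNA, differed by 0.50 (95% interval -0.39 to 1.39). Grap, a GRB2-related adaptor of lymphocyte receptor signalling, had 11.29, 11.20, 12.18 and 12.07 at week 22, against 12.81, 12.23, 12.52 and 12.25 at week 19. The ages did not overlap, and the week 22 arrays split into the same pairs as for the chemokines. The difference was -0.77 ± 0.24 (SE, n = 4 each; limma adjusted p = 0.467). It was -1.21 without the series 4 arrays of week 22 (limma adjusted p = 0.0492) and -0.52 without the late arrays of series 1 and 2. The first omission removes the 2 week 22 values closest to week 19, so no call was read from it. Elf4, an ETS family transcription factor, had 9.64, 10.55, 9.93 and 11.09 at week 22, against 11.18, 11.85, 10.78 and 10.93 at week 19. Only week 22 replicate 4 reached into the week 19 range, and the difference was -0.88 ± 0.30 (SE, n = 4 each; limma adjusted p = 0.542).

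The milk protein genes leaned the other way. The 4 of them that could be named were all on the higher side at week 22, where 54.5% of all tested probes were also above 0. Their median difference was 1.39, against 0.0372 over all probes, and 0 of the 4 passed the test with limma. By unadjusted p under 0.05, 1 of the 4 was higher, Csn1s2b, against a background of 3.82% of all tested probes. The promoter windows of Csn2 and Csn1s2a are shown because STAT5 is the known regulator of casein genes in the gland. Csn2 lies at chr5:87699376-87699675 on the minus strand and Csn1s2a at chr5:87774200-87774499 on the plus strand, again from RefSeq, build GRCm38.p6. Capitals mark the STAT5 letters TTCNNNGAA, which read the same on both strands.
Csn2: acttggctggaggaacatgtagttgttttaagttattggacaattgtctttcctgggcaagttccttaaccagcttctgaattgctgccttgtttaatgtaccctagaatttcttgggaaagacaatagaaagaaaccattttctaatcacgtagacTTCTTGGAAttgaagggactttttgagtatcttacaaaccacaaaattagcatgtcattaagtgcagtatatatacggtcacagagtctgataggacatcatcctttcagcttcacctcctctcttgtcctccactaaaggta
Csn1s2a: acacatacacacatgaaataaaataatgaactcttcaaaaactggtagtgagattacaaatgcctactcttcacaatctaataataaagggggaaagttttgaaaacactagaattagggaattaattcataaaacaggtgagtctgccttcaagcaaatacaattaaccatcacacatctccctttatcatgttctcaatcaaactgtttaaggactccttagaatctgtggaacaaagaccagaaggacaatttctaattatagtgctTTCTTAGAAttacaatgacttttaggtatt
The match lay from -93 to -85 in the Csn2 window and from 21 to 29 after the start in the Csn1s2a window. These letters occur in 8.3% of the 32851 windows.

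Csn1s2b, an alpha-S2 casein gene, had 11.87, 14.62, 11.29 and 11.54 at week 22, against 9.01, 10.9999, 12.36 and 8.30 at week 19. Week 22 replicate 2 was the highest of the 8, and week 19 replicate 3 exceeded the other 3 week 22 arrays. The difference was 2.16 ± 0.91 (SE, n = 4 each; 95% interval 0.21 to 4.12), with a limma adjusted p of 0.650 and an exact permutation p of 0.171. The probe was above background on all 4 week 22 arrays but on only 2 of the 4 week 19 arrays, so part of the week 19 mean, and of every difference given for this gene, rests on signals that are not levels.

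Csn1s2a, another alpha-S2 casein gene, had 16.13, 18.03, 16.54 and 16.69 at week 22, against 13.88, 15.54, 17.88 and 13.997 at week 19. Csn2, the beta-casein gene, had 14.16, 17.80, 15.14 and 15.33 at week 22, against 12.52, 14.84, 16.99 and 13.02 at week 19. For both genes the same 2 arrays, replicate 2 at week 22 and replicate 3 at week 19, were the highest of their age. The differences were 1.53 ± 0.97 for Csn1s2a and 1.26 ± 0.89 for Csn2 (SE, n = 4 each), with limma adjusted p values of 0.790 and 0.825. Wap, the whey acidic protein gene, had 10.31, 11.10, 10.86 and 11.28 at week 22, against 10.02, 9.26, 11.18 and 9.54 at week 19. Its difference was 0.89 ± 0.45 (SE, n = 4 each; limma adjusted p = 0.713), with 3 week 22 and 2 week 19 arrays above background. Week 19 replicate 3 again overlapped with week 22.

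The direction differed between array series. Within array series 4, where replicate 3 is the only week 19 array, all 4 genes turned round: the differences were -0.94 for Csn1s2b, -1.27 for Csn1s2a, -1.76 for Csn2 and -0.12 for Wap. Within series 3 they were 4.97, 3.27, 3.87 and 1.70 in the same order of genes. Without week 19 replicate 3 the median difference of the 4 genes was 2.26, and without week 22 replicate 2 it was 0.974. With array series as a block the differences were 2.25, 0.96, 0.80 and 0.85, again in that order. Within scan day 1 (1 array against 1) Csn2 differed by 1.64 and within scan day 2 by 1.14. In the order of ages 10, 15, 19 and 22 weeks, Csn2 had means of 10.23, 10.51, 14.35 and 15.61. The spread among the late arrays of either age, an SD of 1.55 at week 22 and 2.03 at week 19, exceeded the difference between them.

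**Figure D4:**
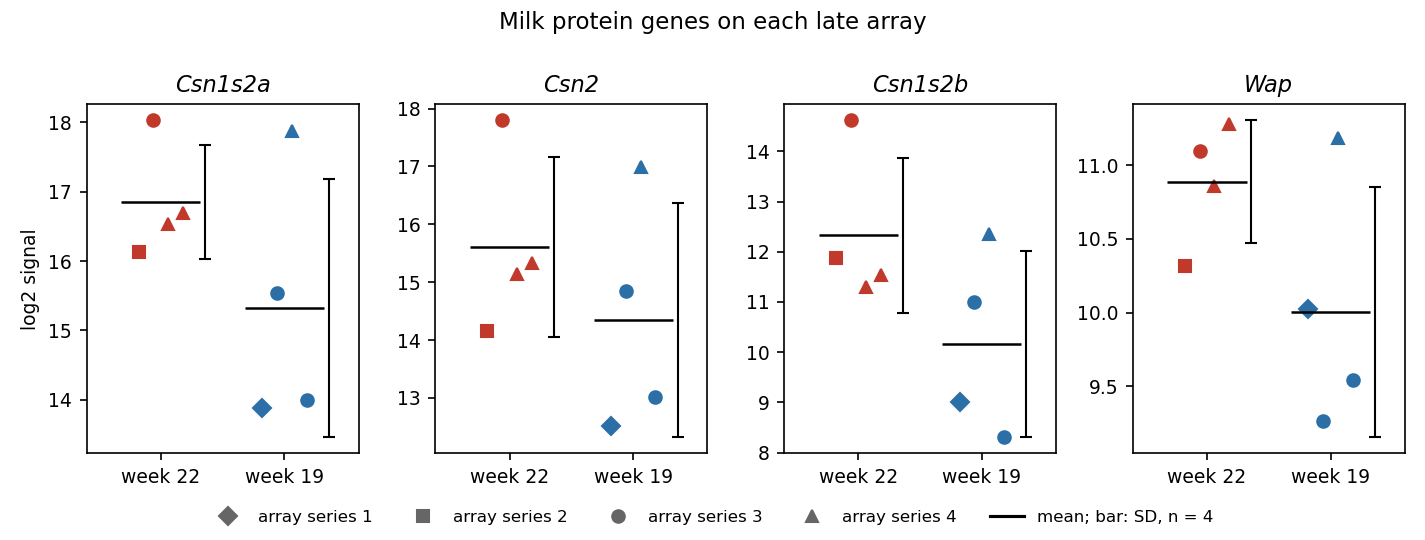
The log2 signals of the 4 milk protein genes are plotted for each of the 4 week 22 and 4 week 19 arrays, with the mean, the SD beside it and the array series as the marker. In every panel the week 19 array of series 4 (triangle) lies inside the range of the week 22 arrays and above the other 3 week 19 arrays.

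The STAT5 genes were measured closely. Stat5a had 14.50, 14.60, 14.54 and 14.57 at week 22, against 14.94, 14.89, 14.55 and 14.44 at week 19, a difference of -0.15 (95% interval -0.65 to 0.34). Stat5b differed by -0.20 (-0.56 to 0.17). These genes were chosen after the gene names were known. Among other epithelial genes, Krt23, a keratin of simple epithelia, had 15.29, 15.38, 15.71 and 16.07 at week 22, against 15.16, 15.41, 15.61 and 15.23 at week 19. The ages overlapped and the difference was 0.26 (-0.76 to 1.28). Wfdc2, which encodes a secreted whey acidic protein domain protein, differed by -0.08 (-1.44 to 1.29), and the intervals of both genes reach beyond 2-fold. Lgals7, which encodes galectin-7 of stratified epithelia and was the only nameable gene of the basal list, differed by 0.05 (-0.31 to 0.41).

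Several named genes without a role in milk or immunity were higher at week 22. Pcdha3, a neural cell adhesion gene of the protocadherin alpha cluster, had 12.73, 12.33, 11.52 and 11.30 at week 22, against 10.15, 10.17, 10.93 and 11.40 at week 19. The 2 series 4 arrays of week 22 were the lowest of their age, and 1 of them lay below week 19 replicate 4. The difference was 1.31 ± 0.39 (SE, n = 4 each; 95% interval 0.47 to 2.14; limma adjusted p = 0.462), and within series 4 it was 0.48. Transcripts of that cluster share exons, so the probe may not tell its members apart. At weeks 10 and 15 the mean was 12.59 and 12.69, above week 19 (10.66) and week 22 (11.97).

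Tcte3, a dynein light chain gene known from testis, had 11.03, 10.51, 9.99 and 10.09 at week 22, against 8.31, 9.55, 7.46 and 9.58 at week 19. It was above background on 2 week 22 arrays and on 0 of the 4 week 19 arrays, so the week 19 level is only a bound. Set against the higher of the probe's own signal and the lowest signal above background on each week 19 array, it was at least 3.20-fold higher at week 22 (measured means 10.40 and 8.73; limma adjusted p = 0.616). The week 22 mean also includes the 2 arrays on which the probe was not above background. Here and below, 'at least' for a probe below background at 1 age allows only for the background limit at that age. It allows neither for the spread between arrays nor for arrays of the brighter age that were not above background. Akap7, an anchoring protein of protein kinase A, had 12.76, 12.10, 11.37 and 11.86 at week 22, against 10.95, 11.36, 11.26 and 11.11 at week 19. The ages did not overlap, though week 22 replicate 3 and week 19 replicate 2 differed by only 0.0050. The difference was 0.86 ± 0.29 (SE, n = 4 each; limma adjusted p = 0.515), and it was 1.26 without the series 4 arrays of week 22 and 0.54 without the late arrays of series 1 and 2. The first omission removes the 2 lowest week 22 values, so a larger difference follows from the choice.

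Mkrn3, Spin4, Eola1 and Dynlt1b were the other non-overlapping genes on the higher side. Mkrn3, an imprinted gene of the makorin family, had 11.88, 11.27, 11.16 and 11.08 at week 22, against 11.04, 10.65, 10.84 and 10.59 at week 19. Its difference was 0.57 ± 0.24 (SE, n = 4 each; limma adjusted p = 0.660). Spin4, of the spindlin family of histone readers, was above background on 4 week 22 arrays and on 0 of the 4 week 19 arrays. It was at least 1.55-fold higher at week 22 (measured means 12.53 and 11.91; limma adjusted p = 0.697). The 95% interval of its log2 difference, -0.03 to 1.29, included 0. For both genes week 22 replicate 1 was the highest array. Eola1 differed by 0.38 (95% interval -0.01 to 0.77) and Dynlt1b, a cytoplasmic dynein light chain gene, by 0.27 (-0.09 to 0.62). Zfp945, a zinc finger gene, differed by 0.65 (0.09 to 1.21) with overlap between the ages.

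Among the non-overlapping genes on the lower side, the remaining 2 differed little. Rraga, which encodes the RagA GTPase of amino acid sensing, had 15.74, 15.89, 15.89 and 15.48 at week 22, against 15.96, 16.02, 16.16 and 16.01 at week 19. Its difference was -0.29 (95% interval -0.65 to 0.07), and with each array centred on its median it was 0.01, with the sign turned. Dpp9, a dipeptidyl peptidase gene, had 13.39, 13.20, 13.46 and 13.47 at week 22, against 13.66, 13.64, 13.52 and 13.57 at week 19, a difference of -0.21 (-0.54 to 0.11). Both intervals lie within 2-fold although the values of the ages did not overlap.

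**Figure D5:**
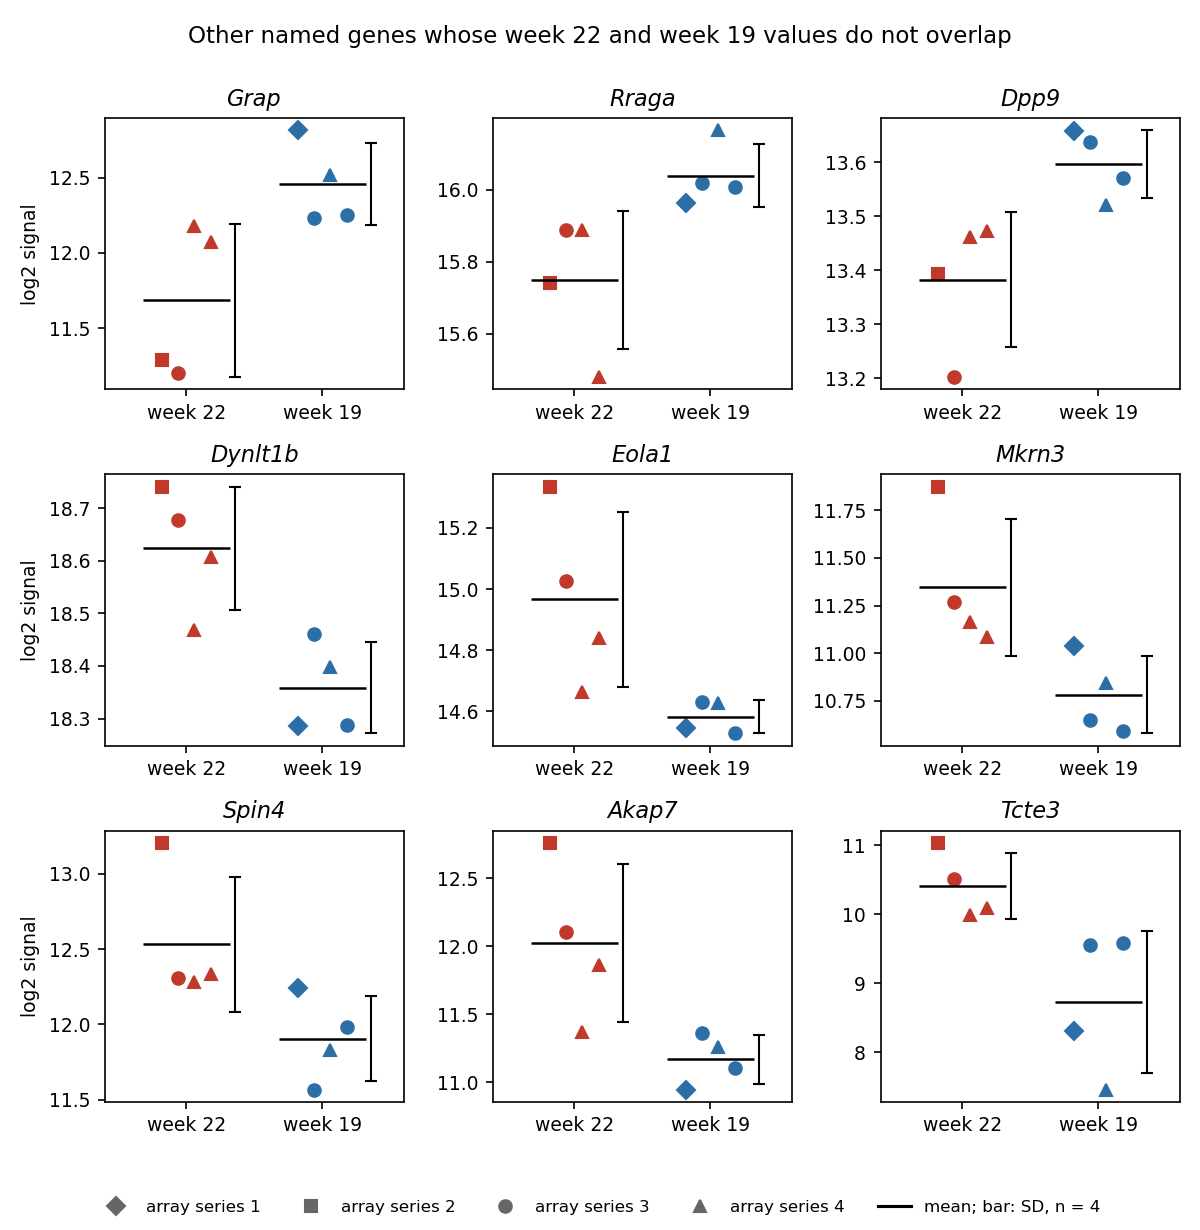
The log2 signals of the 9 named genes other than the chemokines whose week 22 and week 19 values do not overlap are plotted for each late array, with the mean, the SD beside it and the array series as the marker. Each panel has its own scale; the gap between the ages is 0.0050 for Akap7 and 0.40 for Tcte3.

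The 5 named genes with the narrowest intervals were Sf3b5, Atox1, Mapk7, Tcim and Pfdn5. Sf3b5, a subunit of the splicing factor SF3B, had 17.36, 17.47, 17.31 and 17.37 at week 22, against 17.42, 17.62, 17.50 and 17.51 at week 19, a difference of -0.14 (95% interval -0.40 to 0.12). Atox1, a copper chaperone, differed by 0.17 (-0.10 to 0.45), and Pfdn5, a prefoldin chaperone subunit, by 0.10 (-0.21 to 0.41). Mapk7, the kinase ERK5 and the only nameable gene of the HER2 pathway list, had 13.00, 12.93, 13.14 and 12.95 at week 22, against 13.22, 13.06, 13.47 and 13.21 at week 19. Its difference was -0.24 (-0.53 to 0.06), with 1 week 22 array inside the week 19 range. These intervals are from quantile normalization and do not allow for another choice of it. Under cyclic loess the differences stayed within them: -0.10 for Sf3b5, 0.18 for Atox1, -0.29 for Mapk7, -0.05 for Tcim and 0.13 for Pfdn5. With each array centred on its median, which moves the median of all probes to 0.185, the differences were 0.18 for Sf3b5 and 0.23 for Tcim, with the sign turned for both, 0.46 for Atox1, 0.41 for Pfdn5 and -0.09 for Mapk7, so that Sf3b5, Atox1 and Pfdn5 lay outside the intervals above.

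Of the fat and imprinted genes, Aoc3 and Ndn varied widely between arrays of 1 age. Aoc3, an amine oxidase abundant in adipocytes, had 19.14, 18.82, 17.88 and 17.43 at week 22, against 18.94, 18.14, 17.12 and 18.76 at week 19. The 3 series 4 arrays were the lowest of the 8. The difference was 0.08 (95% interval -0.87 to 1.03), and without the series 4 arrays of week 22 it was 0.74. That omission keeps week 19 replicate 3, the lowest of the 8, so a higher value follows from the choice. With array series as a block the difference was 0.38. Plin3, a lipid droplet coat protein, differed by 0.17 (-0.17 to 0.50). Ndn, the imprinted gene of necdin, had 12.02, 12.002, 10.48 and 10.40 at week 22, against 11.76, 12.07, 11.18 and 11.87 at week 19. It was again lowest on the series 4 arrays. Its difference was -0.49 (-1.31 to 0.32), and without the series 4 arrays of week 22 it was 0.29, with the sign turned. That omission again removes the lowest week 22 values and keeps week 19 replicate 3, so a higher value follows from the choice. With array series as a block the difference of Ndn was -0.42. Peg12, another imprinted gene, differed by -0.43 (-1.13 to 0.27).

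Mup1, a major urinary protein gene, had 19.41, 19.58, 19.64 and 19.52 at week 22, against 20.08, 19.33, 20.15 and 19.92 at week 19. Week 19 replicate 2 lay below all week 22 arrays, and the difference was -0.33 (95% interval -0.77 to 0.11). Hba-a1, the alpha globin gene that marks red blood cells, differed by -0.10 (-0.79 to 0.59). Jun and Cebpb, transcription factors of the bZIP class, differed by -0.18 (-0.90 to 0.54) and -0.21 (-0.64 to 0.22). A further Cebpb probe gave -0.39 (-1.47 to 0.69), an interval that reaches beyond 2-fold.

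Hair and skin genes were dim on the late arrays. Of 8 kept members, 4 were above background on no late array, 2 were on the higher and 6 on the lower side, and the median was -0.24. Krt25, a hair follicle keratin, had 8.88, 8.43, 8.86 and 7.97 at week 22, against 9.87, 8.48, 10.46 and 10.30 at week 19. It was above background on 0 week 22 arrays and 3 week 19 arrays, and it was at least 2.36-fold lower at week 22 (measured means 8.54 and 9.78; limma adjusted p = 0.931). Its 95% interval, -5.56 to 3.08, is wide, and the week 10 arrays, which share the estimate of spread, had a lowest value of 8.06 and a median of 15.33. Olfactory and vomeronasal receptor genes, which serve as a further set of dim probes, had 10 kept members, 5 on either side, and a median of 0.06.

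None of the other genes taken up by the naming rule passed the test, and not all of them are given. Mos differed by -0.71 (95% interval -1.53 to 0.12), Rnf112 by -0.37 (-0.83 to 0.09) and Ikbip by 0.37 (-0.03 to 0.76). Olfr1253, above background on 2 week 22 arrays and 1 week 19 array, differed by 1.14 (-0.59 to 2.86). Rasd1, a Ras-related gene induced by dexamethasone, had 17.71, 17.42, 16.73 and 16.45 at week 22, against 16.69, 16.22, 14.89 and 16.84 at week 19. Week 19 replicate 3 was the lowest of the 8, and the difference was 0.91 ± 0.44 (SE, n = 4 each; limma adjusted p = 0.688). Aldh3b3, an aldehyde dehydrogenase gene, was above background on 0 week 22 arrays and 3 week 19 arrays. It was at least 2.18-fold lower at week 22 (measured means 8.58 and 9.70; limma adjusted p = 0.688). The ages overlapped, and the 95% interval of its log2 difference was -2.29 to 0.03. Sox11, a transcription factor gene of neural development, was above background on 1 array of each age and differed by 0.60 (95% interval -0.39 to 1.6). Csprs differed by 0.43 (-0.35 to 1.21), Nat8f2 by 0.39 (-0.22 to 0.99) and Sult5a1, a sulfotransferase gene, by 0.53 (-0.13 to 1.18). Dhrs7b, a dehydrogenase/reductase gene, had an interval within 2-fold, -0.21 to 0.46 around 0.12.

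The smallest p values belonged to probes that cannot be named here. The probe of mCG8472.1 had 9.47, 7.95, 9.15 and 8.94 at week 22, against 11.78, 11.26, 11.11 and 11.53 at week 19. It was above background on 0 week 22 arrays and 3 week 19 arrays, and it was at least 5.82-fold lower at week 22 (measured means 8.88 and 11.42; limma adjusted p = 0.0537). The ages did not overlap. The probe of mCG142172.1 had 8.68, 9.96, 8.56 and 7.65 at week 22, against 12.62, 10.90, 11.44 and 12.82 at week 19, a difference of -3.23 ± 0.47 (SE, n = 4 each; limma adjusted p = 0.0537). It was above background on 1 week 22 array and 4 week 19 arrays. In the order of ages 10, 15, 19 and 22 weeks the means were 9.03, 9.12, 11.42 and 8.88 for mCG8472.1 and 8.07, 7.57, 11.94 and 8.71 for mCG142172.1, so week 19 was the highest of the 4 ages for both.

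In the other direction, the probe of the cDNA clone AK019696.1 had 10.57, 10.35, 9.99 and 10.20 at week 22, against 8.44, 8.29, 8.29 and 8.24 at week 19. It was above background on 3 week 22 arrays and 0 week 19 arrays, which makes it at least 3.89-fold higher at week 22 (measured means 10.28 and 8.32; limma adjusted p = 0.0537). The probe of AK086662.1, above background on 1 array of each age, had 9.47, 9.65, 9.68 and 9.33 at week 22, against 7.48, 8.17, 8.34 and 7.99 at week 19. The fitted difference of 1.54 (limma adjusted p = 0.134) therefore rests mostly on signals that are not levels. Within array series 4 the fitted differences were -2.06 for mCG8472.1, -3.34 for mCG142172.1 and 1.81 for AK019696.1. Within series 3 they were -3.45, -1.90 and 2.08 in the same order. These probes were chosen by their p over the same arrays and their ages did not overlap. Their sign within each series was therefore fixed in advance. For mCG8472.1 the limma adjusted p was 0.0356 when scan day was the block, and 0.294 when it was the array series, a setting in which 0 probes passed. The identifier mCG13009.3 shared the smallest adjusted p and was chosen after its values were seen: it was above background on all 8 late arrays and had 12.96, 13.31, 12.78 and 12.79 at week 22, against 14.51, 14.28, 14.10 and 14.50 at week 19. Its difference was -1.39 ± 0.20 (SE, n = 4 each; 2.62-fold lower; limma adjusted p = 0.0537).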

How the data were processed

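Whole-mount mammary RNA was labelled with digoxigenin and hybridised to AB1700 arrays, per the labels' protocols. Per the file headers, the deposited values are a linear signal intensity with a signal-to-noise score and a flag per probe. Any background correction done earlier is not given in the sources. Where the signal-to-noise ratio was under 1 (31.6% to 39% of probes), the deposited intensity equalled its SD and marks a floor. The authors' value table, deposited as log2 values with a median of 10.03 in every column, ranks probes as the signals do (Spearman correlation of 1) and served as an alternative. Its offset is unknown.

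Signals of 33012 gene probes (303 control spots left out) were taken to log2 and quantile normalized over 15 arrays. Probes above background (signal-to-noise at least 3, flag under 5000) on 50% or more of the arrays of any age were kept. Limma 3.58.1 in R 4.3.3 fitted age as 4 levels over all 15 arrays (two-sided, Benjamini-Hochberg over 20867 probes, threshold 0.05), so arrays of weeks 10 and 15 share the estimate of spread. The test was tried on simulated data. Scan day, array series, normalization, offset, filter, weights and single arrays were varied. The number of arrays limits the precision.

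RefSeq accessions and symbols matched to the GRCm38.p6 gene table named 317 probes of 311 genes; 104 of these genes were not kept. The brightest kept probe stood for a gene. Genes were named in the text by a rule: members of 28 lists with the smallest p, the smallest p values, the largest differences, those without overlap, the narrowest intervals and genes of earlier results. Of those lists 18 had a kept member. A further 8 lists were added once gene names were known, and genes in those alone were chosen with their values in view. The comparison and lists were chosen with earlier results of these data known. Replicate numbers were given in accession order and pair no arrays. The animals are separate per the series design.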

Additional observations from a re-analysis of the deposited data

Results flagged for a closer look

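In 6 of 132 groups of 4 values of a named gene, 1 array lay far from the other 3 relative to the group's range. Chance marks about 1 in 20 such groups. At week 22, replicate 1 was high for Spin4 (13.21, the others 12.28 to 12.33) and low for Wfdc2 (12.88, the others 13.63 to 13.70). Replicate 3 of that age was high for the olfactory receptor gene Olfr1253 (11.48, the others 8.16 to 8.51) and low for the hair gene Krtap6-1 (7.76, the others 8.14 to 8.19). At week 19, replicate 3 was low for Ccl19 (15.63, the others 16.43 to 16.57) and replicate 4 was low for the olfactory receptor gene Olfr982 (8.90, the others 10.60 to 10.80).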

How the results depend on the processing

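No paired analysis was possible because the arrays of the 2 ages come from separate animals. Against 0 probes past the test, alternatives gave 3 with median centring, 4 with cyclic loess, 11 with 500 added before log2, 21 with array weights, 1 each with scan day as a block, only the 8 late arrays or a trended robust variance, and 8 within scan day 1, where 1 late array stood against 1. Leaving out 1 array gave 0 to 13, the 13 without week 19 replicate 3. The authors' table, no filter, a stricter filter, array series as a block and the arrays of day 2, series 3 or series 4 alone gave 0. Against 1163 probes at least 2-fold apart, there were 382 with 500 added, 556 under the stricter filter, 4628 within scan day 1, 2865 within series 3, 2080 within series 4 and 1210 to 1467 with 1 array left out. Against 10581 intervals within 2-fold, there were 7 within scan day 1, 5266 within series 3, 2534 within series 4 and 9290 to 10110 with 1 array left out; these subsets hold fewer arrays. Leaving out the 2 week 22 arrays of series 4, chosen after seeing the data, gave 72 probes past the test and 2649 at least 2-fold apart; leaving out the late arrays of series 1 and 2, also chosen then, gave 0 past the test. The cause of these shifts was not tested. Of 71 genes or probes followed through the alternatives, 37 kept their sign in all of them and 34 turned in at least 1. Some alternatives could turn no sign, since they leave every fitted difference as it was. These were the changes of filter, only the 8 late arrays, the trended robust variance and scan day as a block. Where the values of the ages did not overlap, settings that only leave out or select arrays could not turn the sign. Probes under background give no level, which limits dim genes.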

Other observations

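The 3 late arrays of series 4 were 2 of week 22 and 1 of week 19. Of 20867 tested probes, 1858 were higher and 1510 lower on them without overlap with the other 5 late arrays. Among the 207 named genes, 16 were higher on these 3 arrays, among them the keratin gene Krt23, the kinase gene Tnk1 and Trim59. Another 15 were lower, among them the adipocyte gene Aoc3, the galectin-1 gene Lgals1, the translation repressor gene Eif4ebp1 and Ndn. Both shares were near those over all tested probes, so the named genes do not stand out. Eif4ebp1 had 11.50, 11.03, 7.93 and 8.40 at week 22, against 9.84, 9.98, 9.27 and 9.78 at week 19, so its fitted difference between the ages was close to 0 while the week 22 arrays alone spanned 7.93 to 11.50. Its probe was above background on only 2 week 22 arrays, against 4 week 19 arrays, so part of that span rests on signals that are not levels. Tnk1 had 15.13, 15.38, 15.93 and 15.99 at week 22, against 14.87, 15.56, 15.60 and 15.27 at week 19. Whether these arrays share a tissue makeup or a processing step cannot be told apart here.

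The lists written after the gene names were known showed some one-sided counts. Of 8 zinc finger genes, 7 were on the higher side at week 22 with a median of 0.48, and of 10 germ cell and oocyte genes 7 were on the higher side with a median of 0.43, against 54.5% of all tested probes above 0 and a median of 0.0372. Among those 7 germ cell and oocyte genes, Etd and Speer4d were above background on no late array, and Tcte3 and Spin4 on no week 19 array. Zfp352 is on both lists, so the counts are not separate. Of 10 Wnt, secreted and matrix genes, 7 were on the lower side with a median of -0.05, and 9 had an interval within 2-fold. Of 15 growth factor and kinase signalling genes, 7 were higher and 8 lower. None of these genes passed the test. By unadjusted p under 0.05 the lists held 1 zinc finger gene and 1 germ cell gene that were higher and 1 signalling gene, Grap, that was lower. Over all tested probes, 3.82% were higher and 3.5% lower by that measure. The list of innate and lymphocyte genes held 2 that were lower by that measure, Grap again and Elf4.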
